A study of Mus musculus with 12 samples.

Results

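The citrate cycle oxidises acetyl groups in the matrix of mitochondria, and a short set of pyruvate enzymes feeds it. The genes described here are 9 enzymes of that route, taken by gene symbol: Pdha1, Dld, Pcx, Cs, Idh3a, Ogdh, Sucla2, Fh1 and Mdh2. All 9 were measured, by 16 probes, among 18295 genes and 41174 gene probes on the array. Of the 16 probes, 15 stood above background in the sample dye on all 12 arrays, and the dimmest of 3 Sucla2 probes did so on 7. Each gene is represented by its brightest probe unless another is named.

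Pyruvate enters the cycle in 2 ways. The pyruvate dehydrogenase complex turns it into acetyl-CoA, and pyruvate carboxylase turns it into oxaloacetate, which replaces cycle intermediates that leave. In fat cells citrate leaves the mitochondria and is cleaved in the cytosol to supply acetyl-CoA for fatty acid synthesis, so the cycle serves lipid storage as well as respiration. Pyruvate dehydrogenase kinases switch the complex off by phosphorylating the protein that Pdha1 encodes, and phosphatases switch it on again.

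The cells were mature adipocytes of 3T3-L1, a mouse preadipocyte line that fills with lipid when differentiated. They had been electroporated (Amaxa) with control oligonucleotides (control-si), oligonucleotides against Tip60 (TIP60-si; the gene is Kat5, a histone acetyltransferase) or oligonucleotides against USP7 (USP7-si; Usp7, a deubiquitinase), and were lysed 2 days later. Each group had 4 arrays. Every array compared amplified cRNA of one such sample with RNA of undifferentiated 3T3-L1 cells, the same on all arrays, in the opposite dye, so all values are log2 ratios of sample over reference. The sample carried Cy3 on replicates 1 and 3 and Cy5 on replicates 2 and 4 of each group, and the values printed per array have the fitted dye effect removed. The knockdown is transient, the oligonucleotide sequences are not in the labels, and nothing in the labels says that replicates came from separate cultures, so p-values measure the spread between these samples, which may be technical.

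The targets matched the labels. Kat5 in TIP60-si was at 50% of control-si (log2 fold change -0.999, SE 0.068), and Usp7 in USP7-si was at 32.0% by its brightest probe (-1.64, SE 0.10), while a dimmer Usp7 probe gave 0.028 (SE 0.062). Adipocyte markers had a median log2 ratio of 2.69 in control-si, with 17 of 20 above 1. Preadipocyte markers had a median of -0.81, with 6 of 17 below -1, but 4 were above 0 and 1 of these above 1. Macrophage and endothelial markers had medians near 0 (0.057 and -0.031). USP7-si replicate 4 had narrower ratios than the other 11 arrays, with a median absolute log2 ratio of 0.055 against 0.11 to 0.15 and an adipocyte marker median of 2.18 against 2.53 to 2.93. The sample dye gave a median raw signal of 124 to 196 on each array over a background of 39.5 to 44. Probes above background made up 96.6% to 98.3% on arrays with the sample in Cy3 and 85.2% to 89.8% in Cy5. With 4 arrays a group the precision is limited.

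All 9 genes stood above the undifferentiated reference in control-si adipocytes. Idh3a, the catalytic subunit of the NAD-dependent isocitrate dehydrogenase, had the highest mean log2 ratio, 1.77 ± 0.088 (SD, n = 4). It was followed by Dld, the dihydrolipoamide dehydrogenase (1.33 ± 0.10), Mdh2, the mitochondrial malate dehydrogenase (1.30 ± 0.17), Pcx, the pyruvate carboxylase (1.26 ± 0.060), Fh1, the fumarase (1.21 ± 0.091), and Cs, the citrate synthase (1.18 ± 0.068). From Dld to Cs, neighbours in this order differed by less than their SDs. Sucla2, the ATP-linked succinyl-CoA ligase beta subunit, was lower at 0.66 ± 0.068. Pdha1, the E1 alpha subunit of pyruvate dehydrogenase (0.38 ± 0.070), and Ogdh, the E1 subunit of the 2-oxoglutarate dehydrogenase complex (0.30 ± 0.040), had the smallest ratios. The reference is 1 RNA with no spread of its own, so these ratios carry no test, and in bulk RNA a larger share of differentiated cells and more transcript per cell cannot be told apart.

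The other probes of a gene gave other ratios, so the order of Ogdh, Pdha1 and Sucla2 depends on the probe. The dimmer Ogdh probe gave 0.84 ± 0.071 and the dimmer Pdha1 probe 0.85 ± 0.091. The other well-measured Sucla2 probe gave only 0.095 ± 0.080. Cs was higher by its second probe (1.59 ± 0.051), and the 3 Dld probes gave 1.33, 1.38 and 1.68.

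The median log2 ratio of the 9 genes was 1.21 in control-si, against -0.0019 for all genes by their brightest probe, and 6 of the 9 exceeded 1 against 538 of 18295. Other subunits of cycle enzymes and of pyruvate dehydrogenase had a median of 1.08, with all 12 measured above 0. The median over the 9 genes on single arrays ran from 1.09 to 1.25 in control-si, from 0.96 to 1.22 in TIP60-si and from 1.06 to 1.20 in USP7-si, so the 3 groups overlapped.

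**Figure D1:**
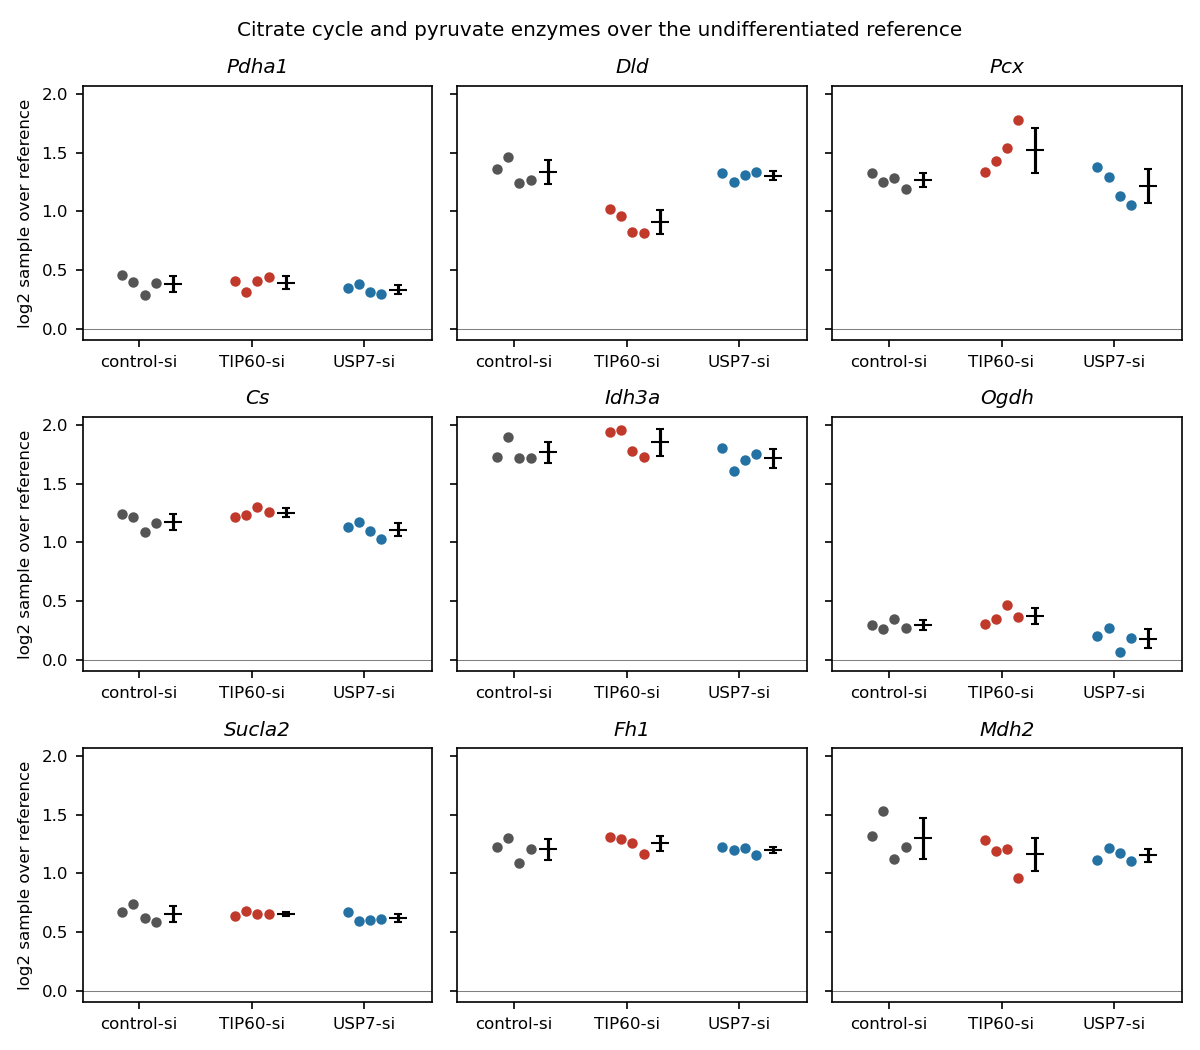
Log2 ratio of sample over undifferentiated reference (vertical axis) for the brightest probe of each of the 9 genes, with 1 point for each of 4 arrays of control-si (grey), TIP60-si (red) and USP7-si (blue), and the mean ± SD to the right of the points. All 9 genes lie above 0 in every group, and the 4 TIP60-si points of Dld, 0.82 to 1.02, lie below its 4 control-si points, 1.25 to 1.47.

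The gene that stood out under TIP60 knockdown was Dld. Its protein is the E3 subunit that reoxidises lipoamide, and it is shared by the pyruvate, 2-oxoglutarate and branched-chain ketoacid dehydrogenase complexes and by the glycine cleavage system. The control-si arrays had log2 ratios of 1.36, 1.47, 1.25 and 1.27, the TIP60-si arrays 1.02, 0.96, 0.83 and 0.82, and the USP7-si arrays 1.33, 1.25, 1.31 and 1.34. Every TIP60-si array was thus below every array of the other groups, while USP7-si and control-si overlapped. In TIP60-si Dld fell to 74.3% of control-si, which is -0.43 on the log2 scale (SE 0.061, 95% interval -0.56 to -0.30, limma adjusted p = 0.00235 over 41174 probes). Against USP7-si the log2 fold change of Dld was -0.40 (SE 0.061, -0.53 to -0.27, adjusted p = 0.00212). In USP7-si against control-si it was -0.030 (SE 0.061, -0.16 to 0.10, adjusted p = 0.984).

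A second Dld probe of like brightness fell as well. Its log2 ratios were 1.42, 1.44, 1.31 and 1.37 in control-si, 0.93, 0.89, 1.09 and 0.82 in TIP60-si and 1.07, 1.38, 1.27 and 1.18 in USP7-si. The log2 fold change in TIP60-si against control-si was -0.45 (SE 0.071, adjusted p = 0.00392), and the groups did not overlap. The remaining Dld probe was dimmer, with a median sample signal of 856 against 6737 for the brightest, and its spread was wider (SD 0.22 in control-si and 0.27 in TIP60-si). It gave -0.18 (SE 0.13, 95% interval -0.47 to 0.11, adjusted p = 0.559), an interval that holds both 0 and the -0.43 of the brightest probe. In USP7-si the second and the dimmer probes gave -0.16 (95% interval -0.31 to -0.0082) and -0.20 (-0.49 to 0.084), neither with an adjusted p below 0.05 (0.762 and 0.908). Between the knockdowns the second probe was at -0.29 (SE 0.071, adjusted p = 0.0236) with overlapping groups, a call kept in 12 of 24 alternatives, and the dimmer probe was at 0.024 (SE 0.13, adjusted p = 0.956).

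Dld stood apart from the other 8 genes on the TIP60-si arrays. Its log2 ratio minus their mean was 0.33, 0.39, 0.30 and 0.30 on the control-si arrays and 0.34, 0.28, 0.39 and 0.44 on the USP7-si arrays, but -0.034, -0.095, -0.25 and -0.23 on the TIP60-si arrays. The mean of the other 8 was 0.95 to 1.08 in control-si, 1.04 to 1.08 in TIP60-si and 0.90 to 0.98 in USP7-si. The fall of Dld passed the test when any 1 array was left out. It missed the threshold with median centring in place of loess (-0.60, adjusted p = 0.274), with arrays scaled to an equal spread (-0.52, 0.594), and within the 2 arrays per group of either dye (-0.38 and 0.115 in Cy3, -0.48 and 0.132 in Cy5).

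Dld is transcribed from the minus strand of chromosome 12 (31331562 to 31351471 in GRCm38.p6). The 250 bases before its RefSeq start are shown because Dld carries the main difference, beside those of Ogdh and Mdh2, the members in which a searched motif was found. RefSeq windows (GRCm38.p6) were matched for 8 of the 9 genes. The sequences run 5′ to 3′ on the gene's strand, and capitals mark the cAMP response element TGACGTCA.
Dld (chr12:31351472-31351721, minus strand): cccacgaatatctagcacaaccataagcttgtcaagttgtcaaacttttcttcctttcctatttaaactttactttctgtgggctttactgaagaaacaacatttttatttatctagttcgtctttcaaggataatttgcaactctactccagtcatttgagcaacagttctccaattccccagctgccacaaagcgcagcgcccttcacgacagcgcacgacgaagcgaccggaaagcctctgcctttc
Ogdh (chr11:6291347-6291596, plus strand): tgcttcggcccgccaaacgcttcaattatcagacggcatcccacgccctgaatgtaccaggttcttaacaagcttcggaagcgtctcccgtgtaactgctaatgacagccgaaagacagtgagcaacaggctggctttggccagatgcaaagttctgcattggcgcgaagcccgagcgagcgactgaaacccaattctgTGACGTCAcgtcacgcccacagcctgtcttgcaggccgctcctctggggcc
Mdh2 (chr5:135778399-135778648, plus strand): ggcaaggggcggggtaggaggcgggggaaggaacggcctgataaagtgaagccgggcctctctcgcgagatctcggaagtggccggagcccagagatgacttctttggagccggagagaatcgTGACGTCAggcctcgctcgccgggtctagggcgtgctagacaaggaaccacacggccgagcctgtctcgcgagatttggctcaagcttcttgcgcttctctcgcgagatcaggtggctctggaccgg
On both strands of the 250 bases 4 motifs were searched: the NRF1 core GCGCATGCG, the ETS site CCGGAAGT, the ERR site TCAAGGTCA and the element above, which none of the others contains. The element lies 51 to 44 bases before the Ogdh start shown and 127 to 120 bases before the Mdh2 start, and 1.55% of all 32851 mouse windows hold it. Ogdh has other RefSeq starts, some of whose windows lack the element, so more windows were searched for Ogdh than for Mdh2. The NRF1 core, held by 1.45% of windows, is found before alternative Ogdh starts. The ETS site (2.88%) and the ERR site (0.387%) were in none of the 14 windows of the 8 genes, and the Dld window held none of the 4. No binding or chromatin data accompany these arrays.

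Under TIP60 knockdown 1 of the 9 genes passed the test, Dld, which fell. The background is 3.78% of all probes called in either direction. By their brightest probes, 268 of 18295 genes were called higher and 685 lower. At an unadjusted p below 0.05 there were 2 of 9, Dld and Pcx, against 21% of all genes, and the groups of 4 arrays did not overlap for the same 2 genes, against 14.2%. The median log2 fold change of the 9 was 0.051, beside -0.0013 for all probes, with 7 above 0 and 2, Dld and Mdh2, below. That median was -0.13 with median centring and -0.077 with arrays scaled to an equal spread.

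Pcx had the largest positive value. Pyruvate carboxylase is abundant in fat cells and supplies oxaloacetate for citrate export. The log2 ratios were 1.33, 1.25, 1.29 and 1.19 in control-si, 1.34, 1.43, 1.54 and 1.78 in TIP60-si and 1.38, 1.30, 1.14 and 1.06 in USP7-si. The TIP60-si arrays lay just above the control-si arrays, the closest pair being 1.34 and 1.33, and overlapped with those of USP7-si. The log2 fold change against control-si was 0.26 (SE 0.089, 95% interval 0.065 to 0.45) with an adjusted p of 0.139, so it was not called. Pcx was not called in any of the 25 alternative settings, in which its value ranged from 0.056 to 0.38.

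Cs, Idh3a and Ogdh, in the steps from oxaloacetate to succinyl-CoA, had small positive values in TIP60-si that missed the threshold. Cs gave a log2 fold change of 0.077 (95% interval -0.028 to 0.18, adjusted p = 0.472) and its second probe 0.14 (0.024 to 0.25, adjusted p = 0.185). Idh3a gave 0.085 (-0.058 to 0.23, adjusted p = 0.587) and Ogdh 0.076 (-0.038 to 0.19, adjusted p = 0.525). Apart from that of the second Cs probe, these intervals hold 0.

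In the steps from succinyl-CoA to oxaloacetate Sucla2 was at 0.00036 (95% interval -0.096 to 0.097) and Fh1 at 0.051 (-0.062 to 0.17). Mdh2, which regenerates oxaloacetate, was at -0.14 (-0.32 to 0.044, adjusted p = 0.453). Its control-si arrays were the most spread of the 9 genes, at 1.32, 1.53, 1.12 and 1.22, and overlapped with the TIP60-si arrays at 1.29, 1.19, 1.21 and 0.96. Pdha1 gave 0.0078 (-0.097 to 0.11, adjusted p = 0.964) by its brightest probe and 0.17 (0.027 to 0.31, adjusted p = 0.197) by the other.

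**Figure D2:**
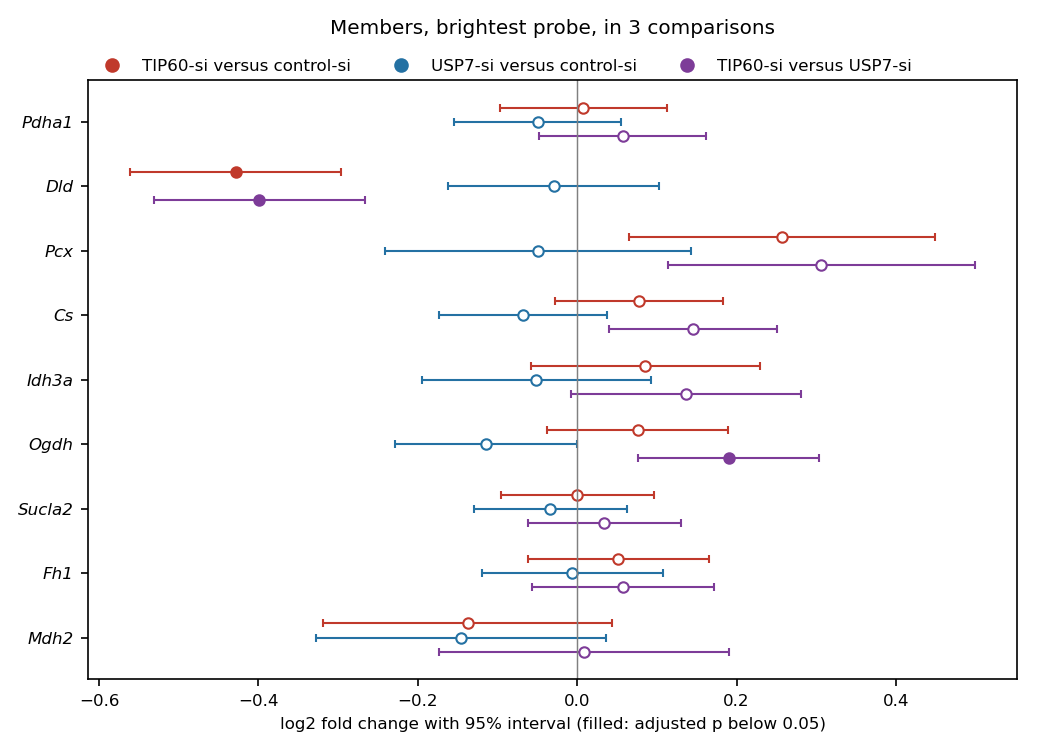
Log2 fold change (horizontal axis) with its 95% interval for the brightest probe of the 9 genes in TIP60-si versus control-si (red), USP7-si versus control-si (blue) and TIP60-si versus USP7-si (purple), filled where the adjusted p is below 0.05. Dld is filled at -0.43 and -0.40 in the comparisons with TIP60-si, Ogdh at 0.19 between the knockdowns, and no USP7-si value against control-si is filled.

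Under USP7 knockdown 0 of the 9 genes passed limma's test, where 0.085% of all probes were called. By their brightest probes, 10 of 18295 genes were called higher and 15 lower. At an unadjusted p below 0.05 there was 1 of 9, Ogdh, against 7.21% of all genes, and the groups did not overlap for 0 of 9, against 5.48%. All 9 values were below 0, from -0.0061 for Fh1 to -0.15 for Mdh2, with a median of -0.049 beside 0.0010 for all probes. That direction did not hold under every scaling: with the arrays scaled to an equal spread the median of the 9 was 0.25. That scaling widens the ratios of USP7-si replicate 4 most. The median log2 ratio of the 9 genes on that array, 1.06, lay within the 0.96 to 1.25 of the other arrays. Without that array the median log2 fold change of the 9 was -0.039. None of the 9 was called in any of the 25 alternatives.

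Ogdh had the smallest unadjusted p of the 9 genes in USP7-si. This E1 subunit decarboxylates 2-oxoglutarate. Its log2 ratios were 0.30, 0.26, 0.35 and 0.27 in control-si, 0.31, 0.34, 0.47 and 0.37 in TIP60-si and 0.20, 0.27, 0.07 and 0.19 in USP7-si. Only the USP7-si array at 0.27 reached the range of control-si. The log2 fold change in USP7-si was -0.11 (SE 0.053, 95% interval -0.23 to -0.00072, adjusted p = 0.794). The other Ogdh probe, at a median sample signal of 264 against 741, gave -0.22 (SE 0.087, -0.41 to -0.036, adjusted p = 0.677).

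The remaining USP7-si values were -0.15 for Mdh2 (95% interval -0.33 to 0.036), -0.068 for Cs (-0.17 to 0.037), -0.051 for Idh3a (-0.20 to 0.093), -0.049 for Pdha1 (-0.15 to 0.055) and -0.049 for Pcx (-0.24 to 0.14). Sucla2 was at -0.034 (-0.13 to 0.063). Over all 16 probes, 14 were below 0 and 2 Sucla2 probes were above 0, at 0.047 and 0.0087. The intervals of both Ogdh probes and of the second Dld probe lay below 0, and those of the other probes held 0.

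**Figure D3:**
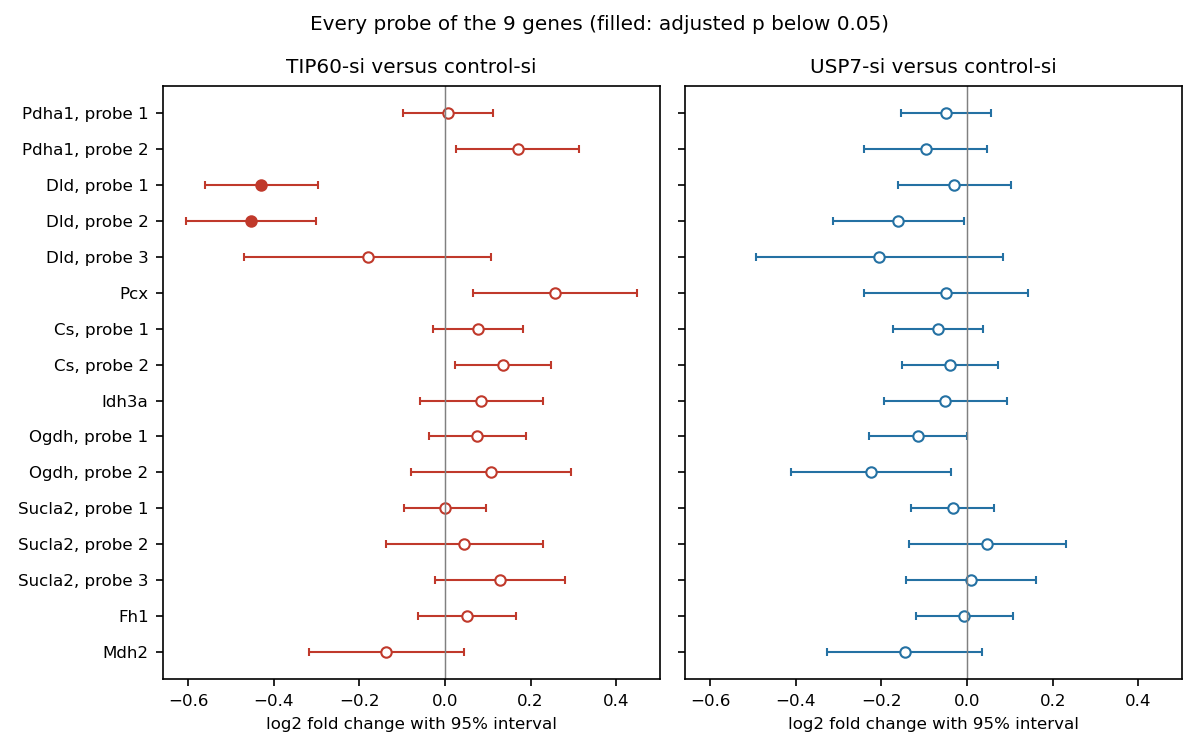
Log2 fold change (horizontal axis) with its 95% interval for each of the 16 probes, in order of brightness within a gene, in TIP60-si versus control-si (left) and USP7-si versus control-si (right), filled where the adjusted p is below 0.05. The 2 bright Dld probes are filled on the left at -0.43 and -0.45, and the dim one lies at -0.18 with a wide interval.

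Set directly against each other, the knockdowns differed in 2 of the 9 genes, 1 lower (Dld, above) and 1 higher in TIP60-si (Ogdh), where 7.38% of all probes were called. By their brightest probes, 555 of 18295 genes were called higher and 1212 lower. At an unadjusted p below 0.05 there were 4 of 9, against 25.4% of all genes, and the groups did not overlap for 3 of 9 (Dld, Cs and Ogdh), against 18.4%. The median log2 fold change of the 9 was 0.058, with 8 above 0, but -0.14 with median centring and -0.32 with arrays scaled to an equal spread. The comparisons of the knockdowns with control-si share the control arrays, so their values for the members are set side by side here and not correlated.

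Ogdh was higher in TIP60-si than in USP7-si by 0.19 on the log2 scale (SE 0.053, 95% interval 0.076 to 0.30, adjusted p = 0.0442), and every TIP60-si array lay above every USP7-si array. Its second probe gave 0.33 (SE 0.087, adjusted p = 0.0347). The call on the brightest probe held in only 6 of 25 alternatives, over which its value ranged from 0.051 to 0.26 and its adjusted p from 0.0188 to 0.971. With the authors' own normalised ratios the value was 0.19 and the adjusted p 0.0672, and without USP7-si replicate 4 it was 0.19 with 0.0966.

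Cs (0.15, 95% interval 0.040 to 0.25, adjusted p = 0.0936) and Pcx (0.31, 0.11 to 0.50, adjusted p = 0.0538) were also at higher log2 ratios in TIP60-si than in USP7-si without passing the test. The Cs arrays were 1.22, 1.23, 1.30 and 1.26 in TIP60-si, all above 1.14, 1.17, 1.10 and 1.03 in USP7-si, and 1.24, 1.22, 1.09 and 1.17 in control-si overlapped with both. The second Pdha1 probe was called, at 0.27 (SE 0.067, adjusted p = 0.0279), but the brightest Pdha1 probe was not, at 0.057 (SE 0.049, adjusted p = 0.587). When the probes of a gene were averaged, Cs and Pdha1 passed the test and Dld did not (-0.22, adjusted p = 0.0543).

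None of the other subunits of cycle enzymes and of pyruvate dehydrogenase was called lower beside Dld. Of 12 measured, 0 were called by limma in either direction in TIP60-si against control-si, beside 3.78% of all probes. At an unadjusted p below 0.05 there were 4 of 12, against 21% of all genes. Of the 12 values 11 were above 0, with a median log2 fold change of 0.11, but with median centring 1 was above 0 (median -0.044) and with an equal spread 4 were (-0.032). Idh3b, the beta subunit that pairs with Idh3a, was at 0.25 (SE 0.069, adjusted p = 0.0645). Suclg1, the alpha subunit that pairs with Sucla2, was at 0.17 (SE 0.056, adjusted p = 0.126), Sdhb of succinate dehydrogenase at 0.16 (SE 0.069, adjusted p = 0.256), and Pdhb, the E1 beta subunit that pairs with Pdha1, at 0.14 (SE 0.062, adjusted p = 0.258). Dlat and Pdhx, the E2 and E3-binding subunits that hold Dld in the pyruvate dehydrogenase complex, were at 0.038 and 0.034. Dlst, the E2 of the 2-oxoglutarate complex, was at 0.11 (adjusted p = 0.316).

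In USP7-si 0 of these 12 subunits were called by limma, beside 0.085% of all probes. Dlat alone had an unadjusted p below 0.05 (7.21% of all genes did), at -0.17 (SE 0.070, adjusted p = 0.695). The median of the 12 was -0.042, with 11 below 0, and 0.28 with an equal spread. Between the knockdowns, where 7.38% of all probes were called, 3 of the 12 were higher in TIP60-si: Idh3b by 0.31 (adjusted p = 0.0168), Suclg1 by 0.22 (0.0270) and Pdhb by 0.23 (0.0352). With arrays scaled to an equal spread these 3 values turned negative and uncalled (-0.23, -0.20 and -0.57).

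Among the enzymes that switch pyruvate dehydrogenase, 2 of 6 measured fell in TIP60-si and 0 rose (Pdp2 was not analysed here). Beside them 3.78% of all probes were called, and by brightest probes 268 of 18295 genes were called higher and 685 lower. At an unadjusted p below 0.05 there were 3 of 6, against 21% of all genes. Pdk1, a kinase of the complex, had log2 ratios of 1.54, 1.72, 1.60 and 1.80 in control-si, 1.50, 1.36, 1.45 and 1.13 in TIP60-si and 1.42, 1.52, 1.55 and 1.52 in USP7-si. All TIP60-si arrays were below all control-si arrays, and Pdk1 changed by -0.31 on the log2 scale (SE 0.078, limma adjusted p = 0.0436). In USP7-si Pdk1 was at -0.17 (SE 0.078, adjusted p = 0.802). Between the knockdowns it was at -0.14 (adjusted p = 0.331) with overlapping groups, so the fall was not shown to be particular to TIP60-si. Pdk4, the kinase induced by fasting, was far below the reference, at -2.29, -2.41, -2.52 and -2.52 in control-si, -2.77, -2.64, -2.77 and -2.67 in TIP60-si and -2.34, -2.46, -2.37 and -2.36 in USP7-si. Its log2 fold change in TIP60-si was -0.28 (SE 0.059, adjusted p = 0.0199), and between the knockdowns -0.33 (adjusted p = 0.00506). With arrays scaled to an equal spread both Pdk4 values turned positive and uncalled (0.047 and 0.79).

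These 2 kinase calls rested on fewer settings than that of Dld, which held in 21 of 25. Pdk1 was called in 8 of 24 alternatives and Pdk4 in 14 of 24, and without control-si replicate 2 neither was called (adjusted p = 0.128 and 0.0655). The phosphatase catalytic subunit gene Pdp1 was lower in TIP60-si than in USP7-si by a log2 fold change of -0.31 (adjusted p = 0.0324) but was not called against control-si in either knockdown (-0.15 and 0.17). Pdk2 and Pdk3 were at 0.10 and -0.10 in TIP60-si, neither called. In USP7-si 0 of the 6 were called by limma, beside 0.085% of all probes. Likewise 0 of the 6 had an unadjusted p below 0.05, against 7.21% of all genes.

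Of 21 genes for carriers and enzymes of pyruvate and citrate exchange with the cytosol, 1 fell and 0 rose in TIP60-si against control-si. The background is 3.78% of all probes called. At an unadjusted p below 0.05 there were 6 of 21, against 21% of all genes. The aspartate and glutamate carrier Slc25a12 fell by 0.16 on the log2 scale (SE 0.041, adjusted p = 0.0444), a call kept in 4 of 24 alternatives. The dicarboxylate carrier Slc25a10 (0.38, SE 0.099, adjusted p = 0.0508), the citrate lyase Acly (0.23, SE 0.070, adjusted p = 0.0901) and Pck2, the mitochondrial phosphoenolpyruvate carboxykinase (-0.19, SE 0.057, adjusted p = 0.0831), did not pass. In USP7-si 0 of 21 were called by limma, beside 0.085% of all probes. An unadjusted p below 0.05 was reached by 2 of the 21, against 7.21% of all genes. These were Pck1, the cytosolic carboxykinase (-0.48, SE 0.19, adjusted p = 0.701) and Ldha, a lactate dehydrogenase subunit (-0.21, SE 0.086, adjusted p = 0.710). Between the knockdowns, where 7.38% of all probes were called, 4 were higher in TIP60-si (Pck1 by 0.72, Slc25a10 by 0.36, Acly by 0.25 and Got2 by 0.20) and 2 were lower (Pck2 at -0.23 and Slc25a12 at -0.16). Of 24 alternatives these calls held in 9 for Pck1, 6 for Slc25a10, 10 for Acly, 5 for Got2, 10 for Pck2 and 9 for Slc25a12. With an equal spread Pck1, Slc25a10 and Pck2 turned sign and were uncalled (-0.20, -0.68 and 0.023).

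No gene of lipoylation or of the other lipoamide enzymes that use Dld was called lower in TIP60-si, where 685 of 18295 genes were. Of 15 genes of lipoylation and of side entries to the cycle, 0 were called by limma in TIP60-si, with 3 at an unadjusted p below 0.05, and 0 in USP7-si, also with 3. Over all genes 21% in TIP60-si and 7.21% in USP7-si reached that unadjusted p. Of all probes 3.78% in TIP60-si and 0.085% in USP7-si were called, and 0 of 15 lies near these shares. In TIP60-si the lipoyl carrier protein of glycine cleavage, Gcsh, was at 0.19 (SE 0.054, adjusted p = 0.0740), and the branched-chain complex subunits Bckdha, Bckdhb and Dbt were at 0.075, 0.10 and 0.021. Gcsh was at -0.15 in USP7-si (adjusted p = 0.601), and between the knockdowns it was higher in TIP60-si by 0.34 (SE 0.054, adjusted p = 0.00237), a call kept in 20 of 24 alternatives, but with an equal spread it was at -0.12 and uncalled. Glud1, the glutamate dehydrogenase, was at 0.15 in TIP60-si (adjusted p = 0.130), and Pccb, a propionyl-CoA carboxylase subunit, at 0.17 (adjusted p = 0.217). In USP7-si Pccb was at 0.20 (adjusted p = 0.591) and Mcee, the methylmalonyl-CoA epimerase, at 0.17 (adjusted p = 0.789).

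Of 9 regulators of mitochondrial gene expression, limma called 0 in any of the 3 comparisons. The shares of all probes called were 3.78% in TIP60-si, 0.085% in USP7-si and 7.38% between the knockdowns, and 0 of 9 lies near each. In TIP60-si 0 of the 9 had an unadjusted p below 0.05 (21% of all genes did). Tfam, the mitochondrial DNA packaging factor, was at 0.13 there (adjusted p = 0.349). In USP7-si 1 of the 9 regulators had an unadjusted p below 0.05, against 7.21% of all genes. This was the coactivator Ppargc1b at -0.30 (SE 0.11, adjusted p = 0.614). Between the knockdowns 3 had an unadjusted p below 0.05, against 25.4% of all genes.

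**Figure D4:**
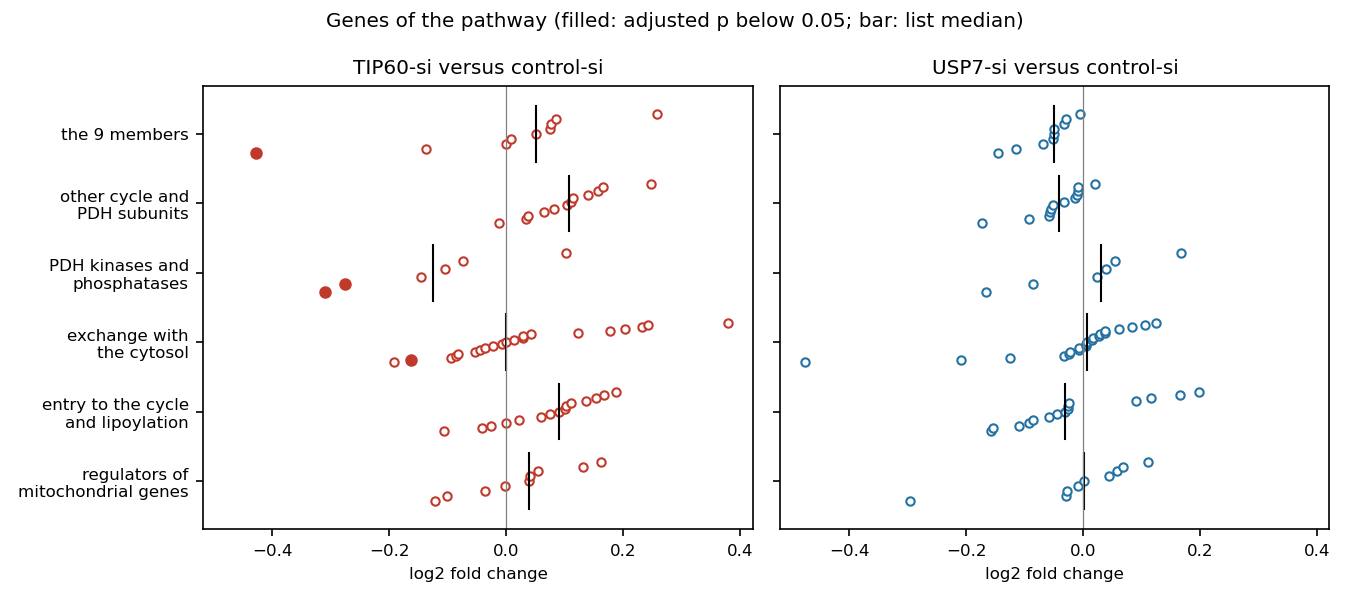
Log2 fold change (horizontal axis) of each measured gene of the 9 members and of 5 lists of the pathway, in TIP60-si versus control-si (left) and USP7-si versus control-si (right), with filled points for an adjusted p below 0.05 and a bar at each list's median. The filled points on the left are Dld, Pdk1, Pdk4 and Slc25a12, all below 0, and there are none on the right.

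Markers of cell state were set beside these values. In TIP60-si 3 of 20 adipocyte markers were called, all higher (Scd1 by 0.60, Pnpla2 by 0.39 and Agpat2 by 0.38), beside 3.78% of all probes. The list had a median of 0.15 (log2 fold change). In USP7-si 0 were called by limma, beside 0.085% of all probes, with a median of -0.12. There 3 had an unadjusted p below 0.05, against 7.21% of all genes. With arrays scaled to an equal spread these medians were -0.20 and 0.64. The adipocyte marker median over the reference was 2.53 to 2.93 per array in control-si, 2.64 to 2.92 in TIP60-si and 2.18 to 2.74 in USP7-si. Of 17 preadipocyte markers, 1 was higher (Thy1, 0.26) and 1 lower (Twist1, -0.34) in TIP60-si and 0 were called in USP7-si. Of 9 macrophage markers 0 were called, and of 8 endothelial markers 1 was higher in each knockdown (Tek, 0.27 in TIP60-si and 0.35 in USP7-si). These counts stand beside the same shares of all probes. The part of these shifts in the members' values was not tested.

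Across the 12 arrays the 9 genes did not move as 1 block. The Pearson correlation of a gene's log2 ratio with the mean of the other 8 was 0.80 for Sucla2, 0.66 for Cs, 0.64 for Fh1, 0.55 for Pdha1, 0.47 for Mdh2, 0.39 for Idh3a and 0.23 for Ogdh. It was -0.077 for Pcx and -0.49 for Dld. Without USP7-si replicate 4, the array with the narrowest ratios, it was 0.11 for Ogdh and -0.24 for Pcx, and -0.45 for Dld. All arrays share the reference, and the correlations are descriptions over 12 arrays. They pool the 3 groups, so the value for Dld includes its lower ratios in TIP60-si and does not describe arrays within a group.

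Among 15100 other genes measured on all 12 arrays, the ratios most like the mean of the 9 were those of Fpr2 (r = 0.91), Prxl2a (0.91), Dnajc15 (0.91), Tmcc3 (0.90) and Slc15a2 (0.89). None of these 5 was called in either knockdown, beside 0.085% of all probes in USP7-si and 3.78% in TIP60-si. Their log2 fold changes were -0.070, -0.12, -0.15, -0.26 and -0.11 in USP7-si and 0.029, 0.040, -0.0044, 0.026 and 0.0039 in TIP60-si. The 5 were picked on these same arrays for their likeness to that mean, so their lack of calls is no separate result. Their log2 ratios in control-si ranged from 0.18 for Fpr2 to 3.25 for Prxl2a.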

How the data were processed

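RNA was measured on 12 two-colour arrays. Per the labels' protocols, the authors scanned them on an Agilent G2565BA scanner, extracted features with Imagene (version not stated) and applied print-tip loess without background correction. The deposited scanner files hold spot and background intensity, and the deposited normalized files hold intensity as the authors normalized it. The log2 ratios of the deposited value table matched sample over reference of the normalized files to within 5e-06.

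The scanner intensities were corrected with normexp (offset 50) and normalized by loess within each array, with the 4046 control spots at weight 0, in limma 3.58.1 (R 4.3.3). Group and orientation of the dyes entered 1 linear model over all 12 arrays (lmFit, eBayes). Two-sided p-values were adjusted by Benjamini-Hochberg over 41174 gene probes and a threshold of 0.05. Intervals are 95% intervals of the model. Above background means more than 2 background SDs over the local background. Symbols were updated through a RefSeq gene table of GRCm38.p6 (3726 probes updated, 95 unmatched, 6988 without a symbol). The script was tested on simulated data.

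The named genes are the 9 members, Usp7 and Kat5, the genes of each pathway list called in any comparison or with the smallest p (up to 4), and the 5 genes outside the lists most like the members' mean. A few others (Dlat, Pdhx, Dlst, the branched-chain subunits, Pdk2, Pdk3, Tfam) are named for their role, and called marker genes were named after their values were seen. The members and lists were chosen with earlier results of these data known. Some genes of the lists are not reported here.

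Same-numbered arrays were checked for pairing. Their deviations within group and dye orientation correlated at 0.0093 to 0.30, not all over 0.1, so the numbers were not taken to pair the samples. No 2 of the 66 array pairs were identical.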

Additional observations from a re-analysis of the deposited data

Results flagged for a closer look

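Idh3a in control-si replicate 2 stood apart from the other control-si arrays, with a log2 ratio of 1.90 (1.899) against 1.72 to 1.73. In all, 27 groups of 4 arrays were examined for such gaps, and chance gives about 1 in 20 groups. Dld differed between the knockdowns by a direct test, with a log2 fold change of -0.40 (-0.3989) in TIP60-si against USP7-si. Ogdh differed between them as well, by 0.19 (0.1901).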

How the results depend on the processing

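Dld in TIP60-si against control-si kept its direction in all 25 alternatives and its call in 21, and no called member changed sign in any comparison. Genes called against control-si came to 1 of 9 in TIP60-si with every 1 array left out (1 to 1) and 0 of 9 in USP7-si (0 to 0). They came to 0 in TIP60-si with median centring, with an equal spread and within either dye. Between the knockdowns 2 were called: 1 with no background correction, with plain subtraction, with the authors' values, without the dye term, with the replicate block, with only the 2 groups compared and within Cy3; 0 with median centring, with an equal spread and within Cy5; and 1 to 3 with 1 array left out, 3 without TIP60-si replicate 1 and 1 without any of control-si 1, 2 and 4, TIP60-si 2, 3 and 4 and USP7-si 3 and 4.

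Over all probes, 35 were called in USP7-si against control-si. That count was 12 with plain subtraction, 3 with median centring, 4 with an equal spread, 18 without the dye term, 77 with array weights, 7 within Cy3 and 0 within Cy5 (2 arrays a group), where the main count at an unadjusted p below 0.05 was 2580. It was 14 to 49 with 1 array left out (14 without USP7-si 1 or control-si 4, 16 without control-si 2, 18 without USP7-si 4, 21 without USP7-si 3). In TIP60-si 1556 were called, but 640, 26, 97, 602, 98 and 32 in the same order without array weights, and 736 to 1797 with 1 array left out (736 without control-si 2, 743 without control-si 4, 859 without control-si 1, 884 without TIP60-si 3). Between the knockdowns 3037 were called, but 1084, 41, 310, 1373, 985 and 45, and 1500 to 3353 with 1 array left out (1500 without USP7-si 3, 1532 without USP7-si 1, 1614 without TIP60-si 3, 1895 without USP7-si 4). The share of calls that are higher moved from 33.1% to 15.4% with median centring, 50% within Cy3 and 3.12% within Cy5 in TIP60-si against control-si, from 37.1% to 66.7% with median centring, 75% with an equal spread and 71.4% within Cy3 in USP7-si, and from 40.3% to 19% with an equal spread between the knockdowns.

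The median of the 9 genes was 0.2471 in USP7-si, -0.07726 in TIP60-si and -0.3244 between the knockdowns with an equal spread, and -0.1325 in TIP60-si and -0.1365 between the knockdowns with median centring. With 1 array left out it ran from -0.07775 to -0.02595, from 0.006554 to 0.0741 and from 0.0442 to 0.09193. With an equal spread, which widens the ratios of USP7-si replicate 4 most, called values turned sign and lost the call: Pdk4 in TIP60-si against control-si (0.04731) and, between the knockdowns, Pdk4 (0.7896), Pck2 (0.02283), Idh3b (-0.2326), Suclg1 (-0.1972), Pdhb (-0.5719), Slc25a10 (-0.6819), Pck1 (-0.2037), Gcsh (-0.1243) and the second Pdha1 probe (-0.111). The causes of the other shifts were not tested.

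Same-numbered arrays were not taken as pairs, though all 6 correlations of their deviations were above 0. With the replicate block, 37, 1715 and 3353 probes were called, and 0, 1 and 1 of the 9 genes, Ogdh between the knockdowns being lost (adjusted p = 0.0557), as were Pdk1 (0.0554) and Slc25a12 in TIP60-si against control-si and Slc25a10, Acly and Got2 between the knockdowns. Slide and scan date were planned as a block but were not found in the files used here, so that alternative was not run. Signal over background limits the Sucla2 probe measured on 7 of 12 arrays.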
